A study of Homo sapiens with 18 samples.

Results

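Silencing of the atypical protein kinases C was examined 24 h after the start of a TGFβ exposure, as 3 arrays of A549 cells transfected with siRNA against PKCiota and PKCzeta (siPKCiz) against 3 arrays of cells transfected with a control siRNA (siControl). These 6 arrays were chosen by their labels, with no measured value used, and were 6 of 18 in the series. A549 is an established human lung adenocarcinoma line, so all groups were samples of a single line. Both arms were grown in 10% serum and starved of it. TGFβ was then given at 250 pM for 1 h, and cells were rinsed and left in 0.2% serum for another 23 h. RNA (200 ng per array) was hybridised to Affymetrix whole-transcript arrays. The other 12 arrays were the same arms without ligand and at 8 h, 3 per group. The siRNA label names both isoforms together, so the isoforms were not silenced apart, and no siRNA sequence is given in the sources used here. The replicates are labelled biological; whether they came from separate cultures is not stated, and p-values measure the spread between these arrays.

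Atypical PKCs are serine and threonine kinases that, unlike the other PKC isoforms, need neither calcium nor diacylglycerol. They bind PAR6 and CDC42 in the polarity complex that places tight junctions, and they bind p62 (SQSTM1) in NF-kB signalling. TGFβ binds a pair of receptor kinases that phosphorylate SMAD proteins, and in A549 cells it drives the epithelial to mesenchymal transition, in which epithelial junction genes fall and matrix and mesenchymal genes rise. PKCiota is known as an oncogene product of lung cancer.

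Median intensity lay between 157.6 and 160.7 on the 6 arrays, and 3 arrays per group limit the precision of every value. The epithelial origin of the cells was visible in KRT8, KRT18, KRT7, EPCAM and CDH1, all 5 above the array median. The 4 measured markers of alveolar type 2 cells (SFTPB, SFTPC, NKX2-1 and NAPSA), 3 of leukocytes and 4 of endothelium all lay below it, with summed intensities of 325 to 362, 231 to 282 and 270 to 302. Of 4 fibroblast markers only LUM, lumican, was above it. Their sum was 640 to 688 in siControl and 747 to 836 in siPKCiz, and 0 of the 4 passed the test. The shift lay in LUM and PDGFRA (log2 changes 0.32 and 0.38), with DCN and COL1A2 near 0 (0.027 and 0.024). A longer list of 8 fibroblast markers had 0 risen and 1 fallen, THY1 (median 0.032), against 1.51% and 1.68% over all genes. The part of the shift in LUM and PDGFRA in other results was not tested.

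Replicate 1 stood apart from replicates 2 and 3 in this comparison. The difference siPKCiz minus siControl was taken on the log2 scale between arrays of the same number. It joins 2 arrays whose shared number was not taken as a pairing, for the reason given in the closing section. Across 18377 genes, which are not independent of each other, that difference correlated at 0.667 between replicates 2 and 3, at 0.0287 between 1 and 2, and at 0.00592 between 1 and 3. Its spread was alike in the 3 numbers, with SDs of 0.267, 0.265 and 0.261. The same correlations with replicate 1 were 0.136 and 0.115 at 8 h and 0.337 and 0.247 without ligand. For this reason values without replicate 1 are given beside those over all arrays, and the cause was not tested.

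**Figure D1:**
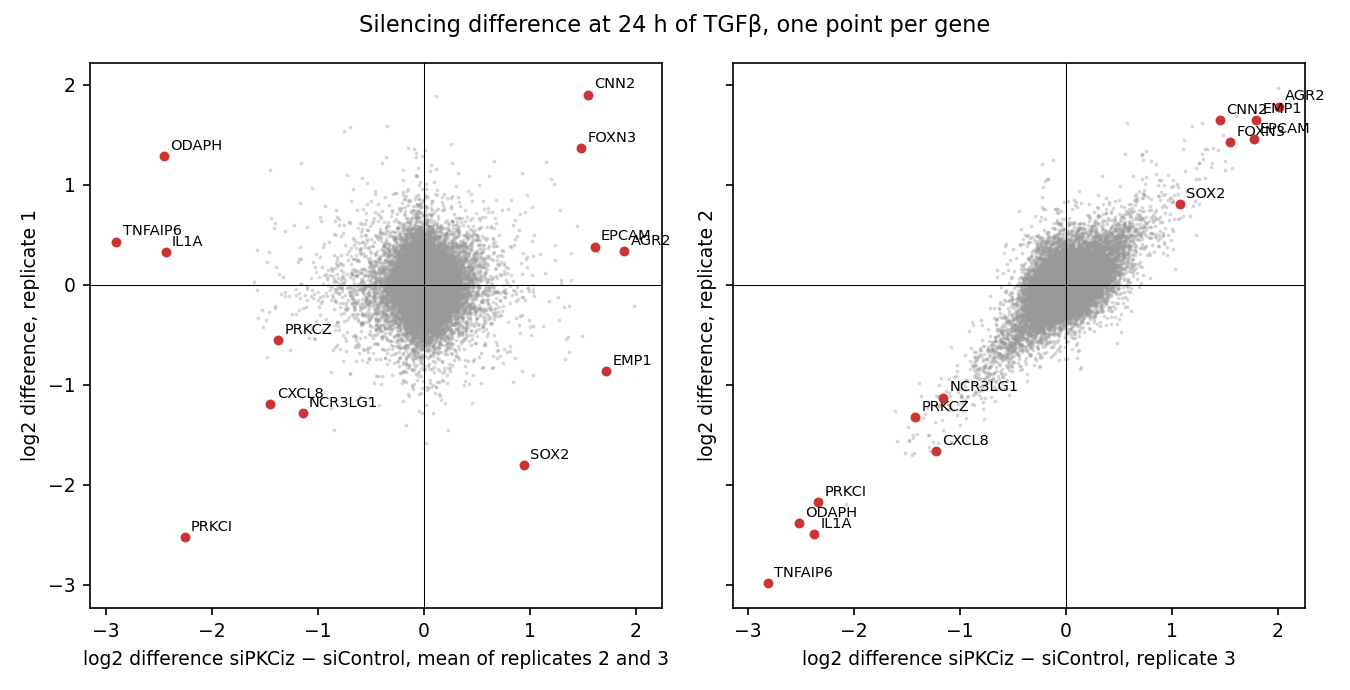
Each grey point is a gene, and both axes give the log2 difference siPKCiz minus siControl at 24 h of TGFβ between arrays of the same number; red points are genes named in the text. On the left replicate 1 (vertical) is set against the mean of replicates 2 and 3 (horizontal) and the genes form a cloud with no diagonal; on the right replicates 2 and 3 lie along the diagonal (r = 0.667 across genes).

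The silenced genes were lower in siPKCiz as labelled. PRKCI, which encodes PKCiota, had intensities of 2633, 2571 and 2815 in siControl replicates 1 to 3 and of 457, 571 and 558 in siPKCiz. The groups did not overlap, and 17.4%, 22.2% and 19.8% of the siControl level was left. Silencing lowered PRKCI 5.08-fold (log2 change -2.34 ± 0.091, SE here and below from limma, n = 3 per group, adjusted p = 1.63e-11), and the change without replicate 1 was -2.25 ± 0.092. PRKCZ, which encodes PKCzeta, had intensities of 302, 472 and 409 in siControl and of 206, 189 and 152 in siPKCiz. The groups did not overlap, but replicate 1 had the lowest siControl and the highest siPKCiz value, with 68.2% left against 40% and 37.3% in replicates 2 and 3. PRKCZ was lowered 2.14-fold (-1.10 ± 0.24, adjusted p = 0.0167). Without replicate 1 the change was -1.37 ± 0.12 (adjusted p = 2.6e-06), and without replicate 2 or replicate 3 it was not called (adjusted p = 0.402 and 0.387). In siPKCiz its level lay near the array median. The PRKCZ step was also narrow in replicate 1 in the other conditions. Without ligand it was 265 to 242 there, against 398 to 142 and 490 to 162 in replicates 2 and 3. At 8 h it was 309 to 254, against 410 to 152.8 and 410 to 152.5. In RNA from whole cultures, fewer cells with a transcript and less transcript per cell cannot be told apart.

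**Figure D2:**
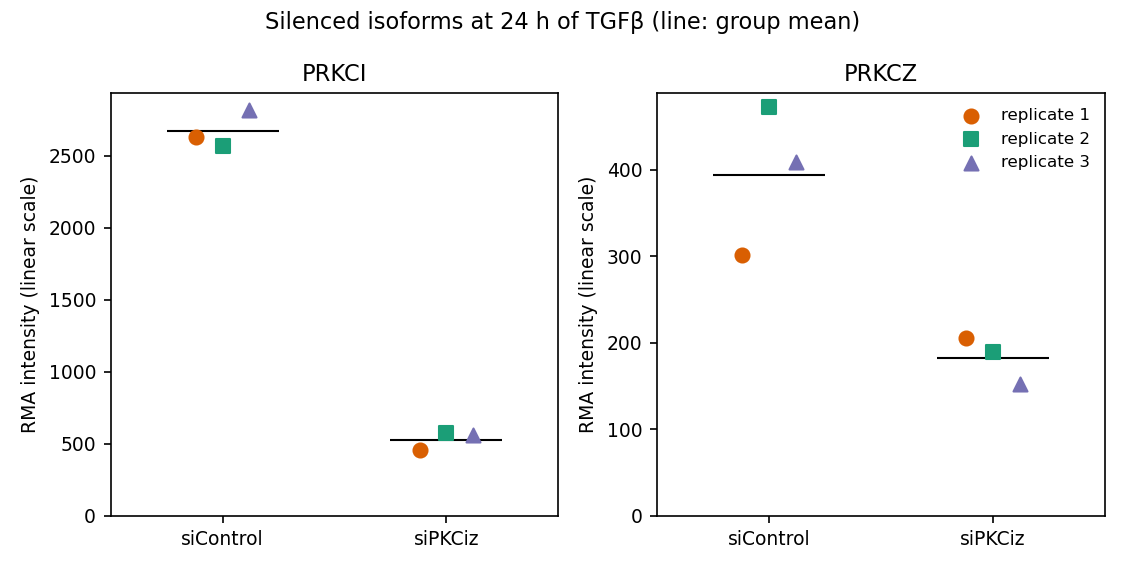
Intensity on the linear scale (vertical) of PRKCI and PRKCZ in the 3 siControl and the 3 siPKCiz arrays at 24 h of TGFβ, with a marker per replicate and a line at the group mean. PRKCI stands at 457 to 571 in every siPKCiz array, while the PRKCZ gap is narrowest in replicate 1 (302 against 206).

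Over all genes 278 rose and 309 fell with silencing at 24 h, 587 of 18377 or 3.19% (1.51% risen and 1.68% fallen; Benjamini-Hochberg adjusted p under 0.05). Of these, 11 rose and 17 fell by at least 2-fold. The 3 siPKCiz arrays lay wholly above or below the 3 siControl arrays in 17.8% of all genes (8.73% higher and 9.08% lower), and in 271 of the 278 risen and 299 of the 309 fallen genes. Without replicate 1 the count was 1035 risen and 1043 fallen (11.3%), which included 253 of the 278 and 299 of the 309. Without replicate 2 it was 13 and 5, and without replicate 3 it was 11 and 9.

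Genes called in 2 replicate numbers were read in the number left out of the fit. Of the 1035 genes called higher without replicate 1, 538 (52%) were higher in replicate 1, where 51.5% of all genes were higher. Their median difference there was 0.017, against 0.45 in replicates 2 and 3, which chose them. Of the 1043 called lower, 591 (56.7%) were lower in replicate 1, against 48.4% of all genes, with a median of -0.034 there and -0.48 in the other replicates. The 13 higher and 5 lower genes called without replicate 2 all had the same direction in replicate 2 (medians 0.84 and -0.89). The 11 and 9 called without replicate 3 likewise all had it in replicate 3 (1.02 and -0.89). Over all genes 50% were higher and 50% lower in replicate 2, and 48.9% and 51.1% in replicate 3. In the numbers that chose them, the medians of these small sets were 0.93 and -1.17, and 0.98 and -0.86. Those changes were larger than in the sets of 1035 and 1043, so the shares are not compared like with like.

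Among the leading genes, defined as the 15 highest and 15 lowest called changes whose groups did not overlap, a first set was picked for its size in replicate 1. In 7 of the 15 risen and 6 of the 15 fallen genes the difference in replicate 1 was at least 75% of the mean of replicates 2 and 3. CNN2, the actin-binding protein calponin 2, had intensities of 672, 710 and 754 in siControl and of 2510, 2220 and 2068 in siPKCiz. Every siPKCiz array was above every siControl array, and CNN2 rose by 1.67 ± 0.11 log2 units (3.18-fold; adjusted p = 9.09e-08). FOXN3, a forkhead repressor, went from 636, 628 and 581 to 1636, 1693 and 1697. Its groups were tight and apart, and it rose by 1.45 ± 0.079 (2.73-fold; adjusted p = 3.71e-09). WDTC1, a substrate adaptor of a ubiquitin ligase, stood at 142, 178 and 144 in siControl and 332, 371 and 344 in siPKCiz (1.18 ± 0.10). HCN2, a pacemaker channel, rose by 1.16 ± 0.10, with 177, 178 and 191 against 355, 458 and 409. NUPR1, a stress-induced chromatin protein, rose by 1.15 ± 0.16, CTSH, the lysosomal protease cathepsin H, by 0.99 ± 0.097, and INTS9, a subunit of the Integrator complex, by 0.95 ± 0.11. Leaving out replicate 1, the changes of these 7 genes were 1.55, 1.49, 1.16, 1.23, 1.20, 0.93 and 0.97, in the order given.

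The fallen genes of this kind included PRKCI. NCR3LG1, the B7-H6 ligand of a natural killer cell receptor, had intensities of 2141, 2015 and 2027 in siControl and 881, 923 and 910 in siPKCiz. No array was out of place, and it was lowered 2.28-fold (-1.19 ± 0.099, adjusted p = 2.07e-06). LIN28B, which blocks maturation of let-7 microRNAs, stood at 456, 425 and 446 against 204, 195 and 224 and fell by 1.09 ± 0.17 (adjusted p = 0.00181). SLC4A8, a sodium and bicarbonate transporter, fell by 1.05 ± 0.12 and RAB39B, a small GTPase, by 0.99 ± 0.13. Both had their largest difference in replicate 1 (-1.45 and -1.23). CXCL8, the neutrophil chemokine interleukin 8, stood at 705, 1042 and 1063 in siControl and at 309, 329 and 454 in siPKCiz. All siPKCiz arrays were lower, and it fell by 1.36 ± 0.29 (2.57-fold lower; adjusted p = 0.0150). Without replicate 1 the changes were -1.14 for NCR3LG1, -1.06 for LIN28B, -0.84 for SLC4A8, -0.88 for RAB39B and -1.45 for CXCL8. Agreement of replicate 1 in this set is fixed by how the set was chosen.

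In the other set the difference in replicate 1 was under 50% of the mean of replicates 2 and 3, in 7 of the 15 risen and 8 of the 15 fallen genes. AGR2, which helps fold secreted mucins, had intensities of 635, 361 and 322 in siControl and of 800, 1241 and 1294 in siPKCiz. The order of arms was the same in each number, but the step was 0.33 in replicate 1 and 1.78 and 2.01 in the others. AGR2 rose by 1.37 ± 0.26 (2.59-fold; adjusted p = 0.00682), and by 1.89 ± 0.15 without replicate 1 (3.71-fold). EPCAM, an epithelial adhesion molecule, stood at 400, 325 and 295 against 521, 891 and 1007 and rose by 1.20 ± 0.27 (adjusted p = 0.0192; 1.61 without replicate 1). TM4SF20, a tetraspan membrane protein, rose by 1.21 ± 0.23, and SLC27A2, a fatty acid transporter, by 1.16 ± 0.19. NFIA, a transcription factor, rose by 1.03 ± 0.15, PREX1, a Rac exchange factor, by 0.96 ± 0.17, and BCAS1 by 0.94 ± 0.22. Without replicate 1 the changes of TM4SF20, SLC27A2, NFIA, PREX1 and BCAS1 were 1.64, 1.45, 1.39, 1.24 and 1.39. BCAS1 had the smallest step of the leading genes in replicate 1 (0.044, against 1.59 and 1.19).

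ITGB3, the integrin beta 3 chain, stood at 540, 749 and 761 in siControl and at 461, 296 and 277 in siPKCiz. Its level was lowered 2.01-fold (-1.01 ± 0.16, adjusted p = 0.00213), with -0.23 in replicate 1 and -1.34 and -1.46 in the others (-1.40 without replicate 1). EXOC5, a subunit of the exocyst that tethers vesicles, had intensities of 2814, 4262 and 3769 against 2229, 1330 and 1391. It fell by 1.15 ± 0.28, and the change without replicate 1 was -1.56 ± 0.15. SLC5A6, a vitamin transporter, fell by 1.15 ± 0.24, ELMOD2, an activator of ARF family GTPases, by 1.11 ± 0.24, and CACNA2D1, a calcium channel subunit, by 1.06 ± 0.23. KCNS3, a potassium channel subunit, fell by 1.23 ± 0.19 and the actin-binding coronin CORO2B by 1.00 ± 0.21. With replicates 2 and 3 alone the changes of SLC5A6, ELMOD2, CACNA2D1, KCNS3 and CORO2B were -1.52, -1.49, -1.46, -1.475 and -1.40. PRKCZ itself belonged to this set.

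The remaining leading genes, KCTD18 and NKIRAS1, lay between the sets, with 58.1% and 51.7% in replicate 1. KCTD18 rose by 1.11 ± 0.11, with 0.75 in replicate 1 against 1.45 and 1.12 (1.285 without replicate 1). NKIRAS1, an inhibitor of NF-kB signalling, fell by 1.06 ± 0.14, with -0.65 in replicate 1 against -1.35 and -1.17 (-1.26 without replicate 1).

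**Figure D3:**
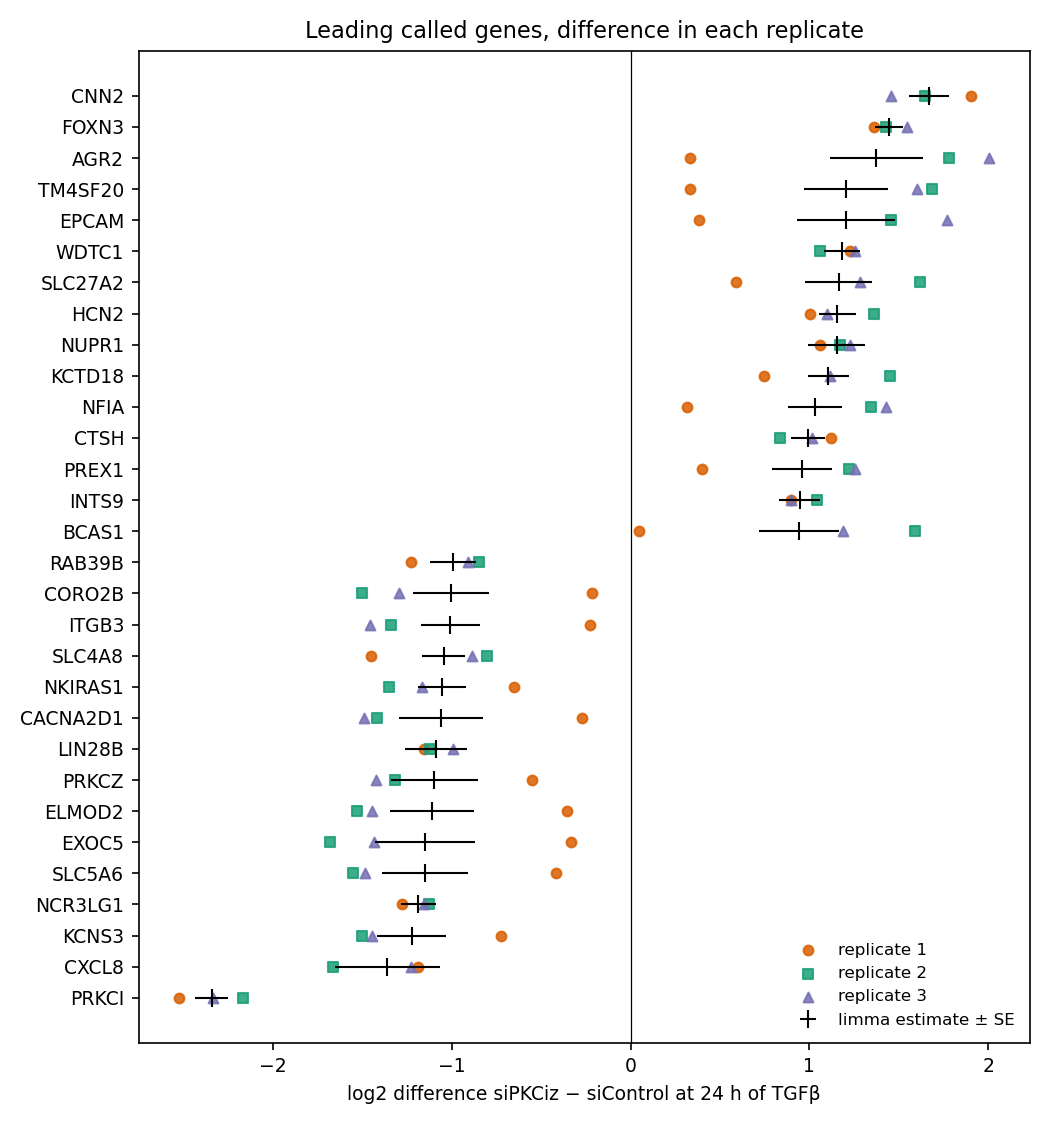
The 15 highest and 15 lowest called genes among those with no overlap between arms; the horizontal axis is the log2 difference siPKCiz minus siControl at 24 h of TGFβ, with a marker for each replicate number and a bar for the limma estimate ± SE. Replicate 1 (circles) lies with the others for genes such as CNN2, FOXN3 and NCR3LG1 and near 0 for genes such as BCAS1, CORO2B and ITGB3.

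Genes were also ranked by the gap between replicate 1 and the mean of the other numbers, among those with a mean log2 intensity of at least 7. TNFAIP6, a secreted hyaluronan-binding protein, had intensities of 1985, 5735 and 5073 in siControl and of 2678, 726 and 722 in siPKCiz. In replicates 2 and 3 siPKCiz stood at 12.7% and 14.2% of siControl and in replicate 1 at 135%, so the groups overlapped. Over all arrays it fell by 1.79 ± 0.45 (adjusted p = 0.0335), and without replicate 1 the change was -2.90 ± 0.090 (7.45-fold lower; adjusted p = 3.67e-11). IL1A, the cytokine interleukin 1 alpha, stood at 240, 939 and 815 against 300, 167 and 157. Only its replicate 1 was higher in siPKCiz, and it fell by 1.51 ± 0.35 (adjusted p = 0.0204), with a change of -2.43 ± 0.12 without that number. LCE3E, a cornified envelope protein, fell by 1.26 ± 0.31, with a change of -2.13 without replicate 1. TNFAIP6 and LCE3E each lost the call in 3 settings that keep these 6 arrays, among them the fit of only the 6 arrays compared (adjusted p = 0.14 and 0.193). ODAPH went from 112, 597 and 555 to 273, 114 and 96.9, and TMEM88 from 329, 810 and 889 to 728, 287 and 335. Neither passed the test over all arrays (-1.21 ± 0.46, adjusted p = 0.186; -0.59 ± 0.35, adjusted p = 0.47). Without replicate 1 their changes were -2.45 and -1.45, and both were called.

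The opposite gap, with replicate 1 below the others, was widest in SOX2, EMP1, DIO2, FGA and PDK4, and 0 of these 5 passed the test over all arrays. SOX2, a stem cell transcription factor, stood at 883, 230 and 240 in siControl and at 253, 404 and 508 in siPKCiz. It was lower with silencing in replicate 1 (-1.80) and higher in replicates 2 and 3 (0.81 and 1.08), and the change over all arrays was 0.028 ± 0.39 (adjusted p = 0.988). EMP1, an epithelial membrane protein, was at 662, 315 and 254 against 363, 991 and 882. DIO2, which activates thyroid hormone, was at 225, 89.4 and 69.3 against 194, 350 and 277. FGA, a fibrinogen chain, was at 392, 158 and 172 against 235, 406 and 427, and PDK4, an inhibitory kinase of pyruvate dehydrogenase, at 930, 337 and 350 against 585, 867 and 913. In each of these 5 genes replicate 1 had the highest siControl and the lowest siPKCiz array. Without replicate 1 all 5 were called higher, at 0.94, 1.72, 1.98, 1.34 and 1.38.

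CXCL8, IL1A and TNFAIP6, chosen from the genes that fell after their values were seen, are shown with the bases before their start. They cover both patterns between replicate numbers. CXCL8 fell alike in every number, and IL1A and TNFAIP6 were lower in replicates 2 and 3 but higher in replicate 1 (0.33 and 0.43). Each line gives 250 bases read 5′ to 3′ in the gene's direction from RefSeq (GRCh38.p14), with matches to the AP-1 motif TGANTCA and to the NF-kB letters GGAATTTCC, on either strand, in capitals.
CXCL8, chr4:73740319-73740568, plus strand: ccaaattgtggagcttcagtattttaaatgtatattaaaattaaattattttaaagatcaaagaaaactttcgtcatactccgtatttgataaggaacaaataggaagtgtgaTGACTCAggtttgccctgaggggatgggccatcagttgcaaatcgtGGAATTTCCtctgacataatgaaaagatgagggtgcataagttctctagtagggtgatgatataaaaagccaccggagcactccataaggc
IL1A, chr2:112784494-112784743, minus strand: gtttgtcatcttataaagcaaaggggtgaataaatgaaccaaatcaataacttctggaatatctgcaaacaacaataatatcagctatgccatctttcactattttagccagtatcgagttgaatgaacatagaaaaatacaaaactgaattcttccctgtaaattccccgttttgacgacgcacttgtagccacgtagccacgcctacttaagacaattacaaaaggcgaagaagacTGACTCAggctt
TNFAIP6, chr2:151357342-151357591, plus strand: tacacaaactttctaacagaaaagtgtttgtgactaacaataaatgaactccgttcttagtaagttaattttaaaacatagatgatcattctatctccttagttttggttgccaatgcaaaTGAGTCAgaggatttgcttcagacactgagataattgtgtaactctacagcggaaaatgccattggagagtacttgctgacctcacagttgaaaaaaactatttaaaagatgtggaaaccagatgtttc

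The AP-1 letters began 137, 12 and 129 bases before the start in CXCL8, IL1A and TNFAIP6, and the NF-kB letters 91 bases before it in CXCL8. The NF-kB letters were picked after the CXCL8 promoter was read. Of 14210 tested genes with a listed promoter, 4.91% held the AP-1 letters in this window, against 4.55% of 220 risen and 5.86% of 239 fallen genes. The genes shown all held the AP-1 letters, so they do not stand for the fallen genes as a group. The NF-kB letters were in 0.401% of all, 0.455% of the risen (1 gene) and 0.837% of the fallen (2 genes). CXCL8, which supplied these letters, is itself among the fallen genes. A match is a description of the letters and no measure of binding.

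NF-kB target genes and cytokines fell in 6 of 23 with 0 risen and 17 not called, against 1.68% fallen over all genes. Their median log2 change was -0.29, against 0.0034 over all genes, and it had the same sign in every number (-0.29, -0.40 and -0.28). Besides CXCL8 and IL1A, RELB, an NF-kB subunit, fell by 0.61 ± 0.12 (514, 531 and 516 against 361, 318 and 344). CCL2, a monocyte chemokine, fell by 0.72 ± 0.18 (3510, 4240 and 4287 against 3149, 2047 and 2219), ICAM1 by 0.46 ± 0.12 and the cytokine LIF by 0.33 ± 0.085. Their changes without replicate 1 were -0.66 for RELB, -1 for CCL2, -0.53 for ICAM1 and -0.35 for LIF. RELB did not overlap and was lower in all numbers, whereas CCL2 was at -0.16 in replicate 1 and near -1 in the others. With silencing without ligand, over all arrays, RELB (-0.66) and CCL2 (-1.05) were also called lower, and IL1A (-0.32) and LIF (-0.21) were not called. Without replicate 1, 10 of 23 were called lower and 0 higher (5.68% and 5.63% over all genes), with CXCL1 (-1.05), NFKB2 (-0.72), IL11 (-0.61) and NFKB1 (-0.41) added. Genes given only for a call without replicate 1, here and below, were chosen after their values were seen.

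Receptors and SMADs of the TGFβ family split, with 4 of 28 fallen and 1 risen, against 1.68% and 1.51% over all genes (median -0.028). ACVR2B, an activin receptor, fell by 0.76 ± 0.093 (191, 197 and 170 against 112, 104 and 112), and its groups were apart in all numbers. TGFBR2, the TGFβ-binding receptor, fell by 0.68 ± 0.11 (2830, 2944 and 2484 against 1914, 1585 and 1671). TGFBR1, its signalling partner, fell by 0.69 ± 0.15 (5621, 7933 and 8265 against 5020, 3772 and 4603), with -0.16 in replicate 1. SMURF2, a ubiquitin ligase that removes receptors and SMADs, fell by 0.58 ± 0.11, with -0.074 in replicate 1. ACVR1 rose by 0.37 ± 0.074. Without replicate 1, BMPR2 (-0.83) was also called lower and SMAD1 (0.37) higher, in all 6 lower and 2 higher, against 5.68% and 5.63% over all genes. The changes of ACVR2B, TGFBR2, TGFBR1, SMURF2 and ACVR1 were then -0.76, -0.73, -0.96, -0.84 and 0.35. The 4 fallen genes were also called lower with silencing without ligand, over all arrays: ACVR2B by 0.63, TGFBR2 by 0.80, TGFBR1 by 0.77 and SMURF2 by 0.63.

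Early target genes of TGFβ had 1 of 31 fallen, LIF, 0 risen and 30 not called, with a median of -0.070 (1.68% fallen over all genes). The numbers parted: 27 of 31 were higher in siPKCiz in replicate 1 (median 0.30), against 3 in replicate 2 (-0.32) and 6 in replicate 3 (-0.15). Without replicate 1, 10 were called lower and 1 higher (5.68% and 5.63% over all genes), including among the lower INHBA, an activin subunit (-1.31), CCN1, a matrix signalling protein (-1.16), PDGFB, a growth factor (-1.10), SPHK1, sphingosine kinase (-0.94), and ANGPTL4, a lipase inhibitor (-0.75). ANGPTL4 was at 1.53 in replicate 1 and at 0.008 ± 0.37 over all arrays. SMAD7, the inhibitory SMAD, was at -0.071 ± 0.15 and was not called with or without replicate 1.

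A list taken from arrays outside this comparison gave the same contrast between numbers. The 126 genes that rose by at least 2-fold at 8 h of TGFβ in siControl, and the 88 that fell, were read at 24 h. The mean log2 intensity of the 126 genes over siControl replicates 1 to 3 was 9.375, 9.99 and 9.91, and over siPKCiz replicates 9.82, 9.375 and 9.34. Replicate 1 thus had the lowest siControl and the highest siPKCiz array of its group. In replicate 1, 115 of the 126 were higher in siPKCiz (median difference 0.47). In replicates 2 and 3 only 16 and 17 were higher (medians -0.57 and -0.51). Over all genes 9470, 9195 and 8993 of 18377 were higher in the 3 numbers. Over all arrays 7 of the 126 fell and 1 rose (median -0.18), against 1.68% fallen and 1.51% risen over all genes. Without replicate 1, 85 were called lower and 4 higher (median -0.55), against 5.68% lower and 5.63% higher over all genes. Before any ligand the steps were smaller but split the same way between numbers. With silencing the mean log2 intensity of the 126 genes went up from 8.17 to 8.28 in replicate 1. It went down from 8.50 to 8.35 in replicate 2 and from 8.52 to 8.34 in replicate 3. The untreated siControl arrays also served to choose the list.

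The 88 genes that fell at 8 h mirrored this. The mean log2 intensity of these genes in siControl was 8.87, 8.36 and 8.29, and silenced arrays had 8.49, 8.92 and 8.91. In replicate 1, 13 of the 88 were higher in siPKCiz (median -0.40), against 79 and 82 in replicates 2 and 3 (0.49 and 0.56). Over all arrays 6 rose and 0 fell (median 0.23), against 1.51% risen and 1.68% fallen over all genes. Without replicate 1, 55 were called higher and 1 lower (median 0.55), against 5.63% and 5.68% over all genes. Before any ligand the mean of the 88 genes went down with silencing from 9.88 to 9.785 in replicate 1. It went up from 9.61 to 9.75 in replicate 2 and from 9.65 to 9.81 in replicate 3. The opposite direction of replicate 1 in these lists was thus not confined to the 24 h arrays. PRKCI was low in all 3 siPKCiz arrays at 24 h, while PRKCZ was lowered least in replicate 1 (302 to 206). A link between these levels and the direction of replicate 1 was not tested.

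**Figure D4:**
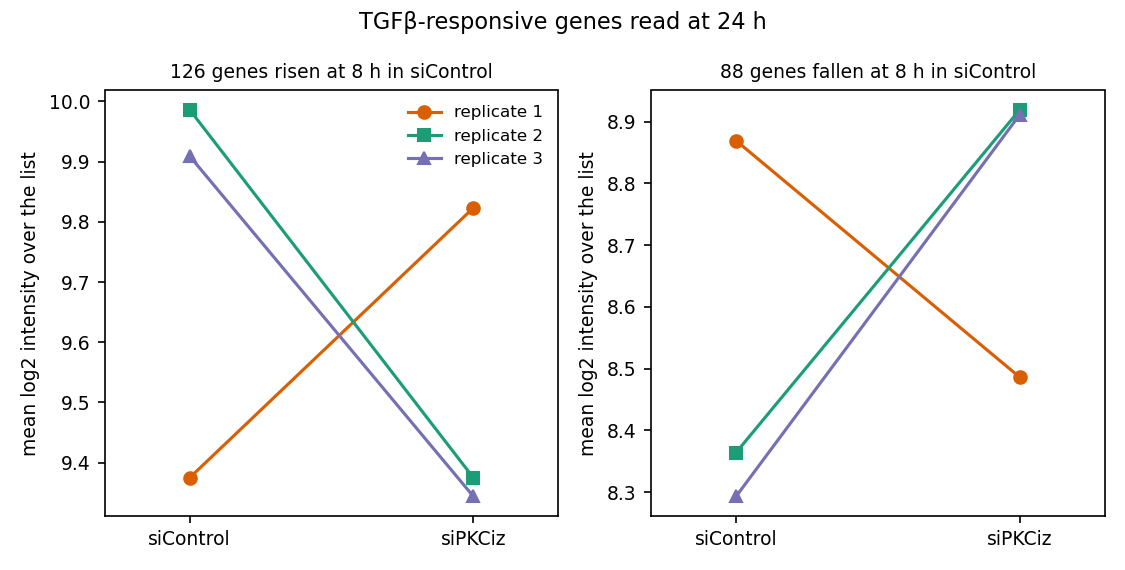
Mean log2 intensity (vertical) at 24 h of the 126 genes that rose and the 88 that fell at least 2-fold at 8 h of TGFβ in siControl; lines join arrays of the same number and do not mark a tested pairing. In replicates 2 and 3 the risen genes are lower and the fallen genes higher in siPKCiz, and replicate 1 runs the other way (9.375 to 9.82 and 8.87 to 8.49).

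Mesenchymal markers had 1 of 20 fallen, THY1, and 0 risen (median -0.049), against 1.68% and 1.51% over all genes. THY1, a surface glycoprotein that is also on the fibroblast list, fell by 0.60 ± 0.15 (430, 426 and 364 against 277, 270 and 259; -0.57 without replicate 1). Vimentin (VIM, -0.034 ± 0.11), N-cadherin (CDH2, -0.032 ± 0.072) and fibronectin (FN1, 0.001 ± 0.13) were not called with or without replicate 1. Without it 7 of 20 were called lower and 0 higher (5.68% and 5.63% over all genes), among them the gelatinase MMP2 (-1.04), SPARC (-0.78) and the smooth muscle protein TAGLN (-0.76). Of 15 transcription factors of the transition 0 passed; SNAI1 was at 0.31 ± 0.18 and SNAI2 at 0.16 ± 0.18, and without replicate 1 ZEB1 was called lower (-0.44).

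Of 30 epithelial markers 1 rose, EPCAM, and 0 fell (median 0.023), against 1.51% and 1.68% over all genes. E-cadherin (CDH1), the adhesion molecule of adherens junctions, had intensities of 228, 228 and 185 in siControl and of 218, 404 and 373 in siPKCiz. Replicate 1 did not differ in the direction of the others (-0.063, against 0.83 and 1.01), and CDH1 was not called over all arrays (0.59 ± 0.17, adjusted p = 0.0685). Without replicate 1 it was called higher by 0.92 (adjusted p = 3.87e-05), as were the epithelial transcription factor ELF3 (0.87), the keratin KRT19 (0.52), the mucin MUC1 (0.41) and PKP2 (0.33). The claudin CLDN4 was called lower (-0.50), for 6 higher and 1 lower in all (5.63% and 5.68% over all genes).

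Among matrix proteases and their inhibitors 2 of 24 fell and 0 rose (median -0.16). Over all genes 1.68% fell and 1.51% rose, and 5.68% and 5.63% were called lower and higher without replicate 1. MMP9, a gelatinase, fell by 0.75 ± 0.13 (184, 174 and 165 against 99.8, 126 and 87.4), and its groups were apart in all numbers (-0.69 without replicate 1). ADAM9, a membrane protease, fell by 0.69 ± 0.17 (6599, 9559 and 8395 against 6268, 4441 and 4560), with -0.074 in replicate 1 (-0.99 without it). Without replicate 1, 10 were called lower and 2 higher, with the collagenase MMP1 (-1.47), MMP10 (-0.81), the urokinase PLAU (-0.62) and its receptor PLAUR (-0.51) among the lower. Extracellular matrix genes had 2 of 38 fallen and 1 risen: the laminin chains LAMA4 (-0.79 ± 0.15, and -1.10 without replicate 1) and LAMC1 (-0.61 ± 0.13, and -0.88), and the collagen chain COL4A4 (0.59 ± 0.14, and 0.42 with adjusted p = 0.0537). Integrins and actin cytoskeleton genes had 3 of 31 fallen and 1 risen, CNN2 (median -0.12). With ITGB3, the collagen receptor ITGA2 fell by 0.57 ± 0.15 and ITGA3 by 0.37 ± 0.096, and both were near 0 in replicate 1 (-0.068 and -0.020; -0.82 and -0.55 without it). ITGB6, a subunit that helps release active TGFβ, was at -0.36 ± 0.42 and ran from 1.22 in replicate 1 to -1.20 and -1.11 in the others. Without replicate 1 this list had 8 called lower and 1 higher, and the matrix list 5 and 0.

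Other PKC isoforms and related kinases had 1 of 11 risen and 0 fallen (1.51% and 1.68% over all genes). PRKCQ, a PKC isoform best known from T cells, rose by 0.53 ± 0.10 (276, 273 and 269 against 386, 384 and 411; 0.55 without replicate 1), alike in every number. Of 25 polarity proteins and other aPKC partners 1 rose, PARD3B (0.47 ± 0.10, and 0.54 without replicate 1), and 0 fell, with changes from -0.14 to 0.47. The 9 genes that had been reported downstream of PKCiota in lung cancer had 0 called over all arrays. Without replicate 1, MMP10 was called lower, and ELF3, SOX2, PLS1 (0.75) and ECT2 (0.50) higher (5.68% and 5.63% over all genes). In replicate 1, siPKCiz was lower in 8 of these 9, where 48.4% of all genes were lower. Those 8 steps ran from -1.80 (SOX2) to -0.004 (PLS1), and the median of the 9 was -0.13.

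NRF2 target genes, which serve glutathione and redox metabolism, had 1 of 19 risen and 0 fallen, against 1.51% and 1.68% over all genes (median 0.21, and 0.11, 0.11 and 0.31 in the 3 numbers). AKR1C2, an aldo-keto reductase, rose by 0.59 ± 0.10 (5442, 4796 and 4266 against 7461, 6519 and 7783), and its groups were apart (0.66 without replicate 1). Without replicate 1, 8 were called higher and 0 lower, against 5.63% and 5.68% over all genes, including ABCC2 (0.93), GPX2 (0.71) and HMOX1 (0.52, and 0.54 ± 0.14 over all arrays). Of 27 MAPK and immediate early genes 3 fell and 0 rose. SPRY4, a feedback inhibitor of growth factor signalling, fell by 0.80 ± 0.14, FOS, an AP-1 subunit, by 0.59 ± 0.14 (177, 178 and 177 against 113, 115 and 127), and ETV4 by 0.46 ± 0.095. FOS and ETV4 were lower in every number, by 0.49 to 0.65 and 0.25 to 0.68 log2 units. Without replicate 1 the changes of SPRY4, FOS and ETV4 were -1.01, -0.56 and -0.35, and those of NT5E, AJUBA and DKK1, read next, were -0.81, 0.74 and 1.05. Among YAP and TEAD target genes NT5E, an ectonucleotidase, fell by 0.68 ± 0.10 and AJUBA rose by 0.59 ± 0.13, of 25. Of 21 Wnt target genes 1 rose, the Wnt antagonist DKK1 (0.86 ± 0.17), and of 15 Hedgehog genes 1 fell, SHH (-0.33 ± 0.084; adjusted p = 0.13 without replicate 1).

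**Figure D5:**
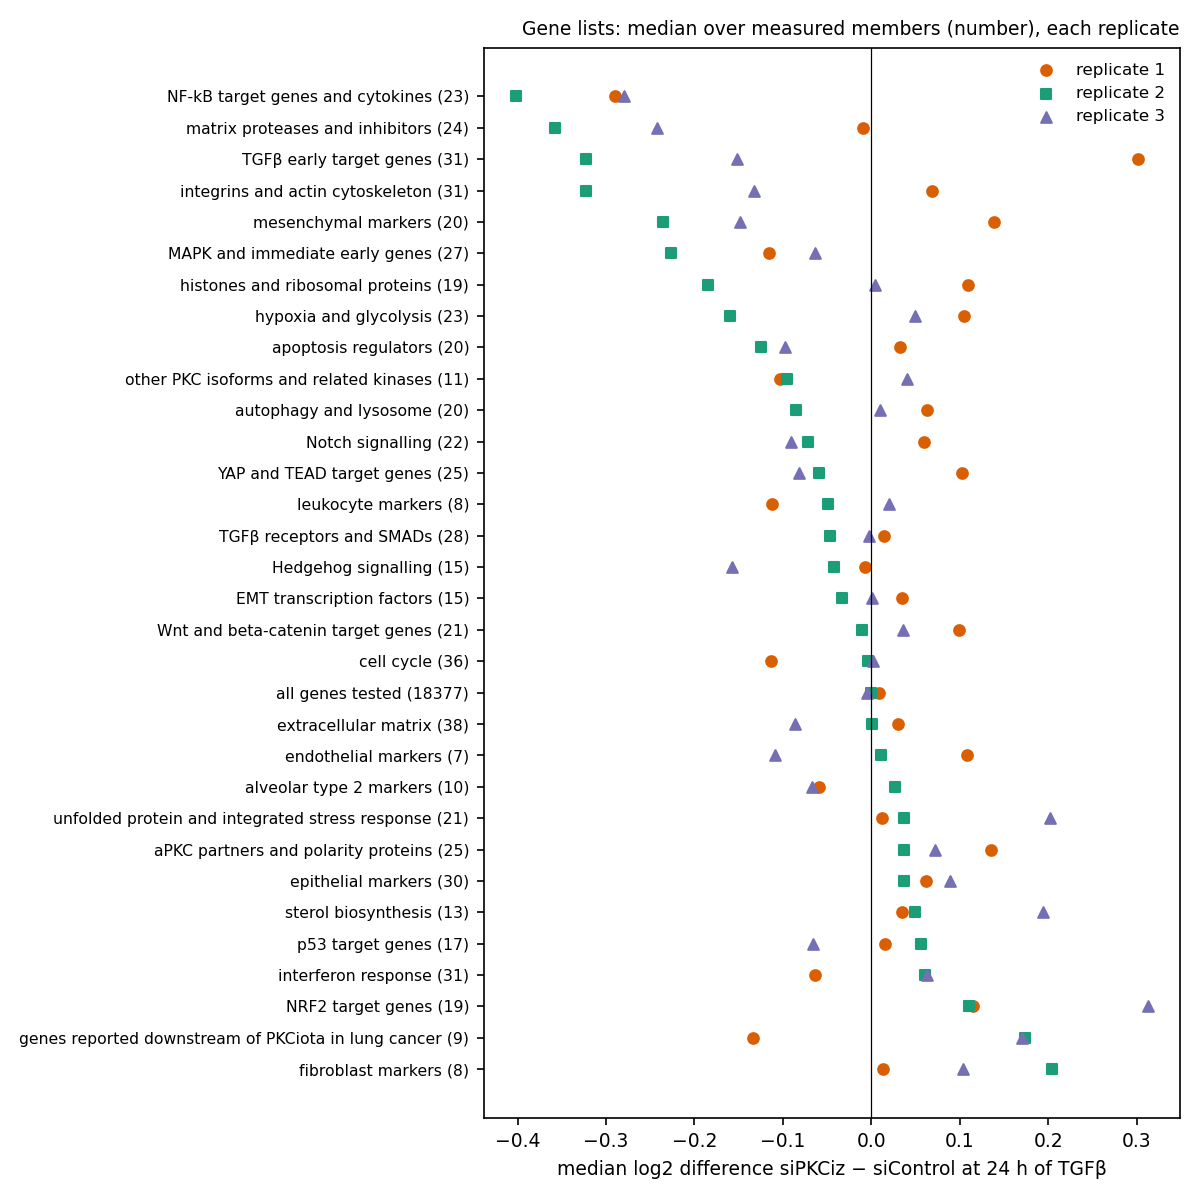
Median log2 difference siPKCiz minus siControl at 24 h of TGFβ (horizontal) over the measured members of each gene list (number in brackets), with a marker per replicate number, sorted by replicate 2. The NF-kB list is below 0 in all numbers (-0.29, -0.40 and -0.28), while the TGFβ early target genes are at 0.30 in replicate 1 and at -0.32 and -0.15 in replicates 2 and 3.

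The effect of silencing at 24 h was then set against that in cells without ligand and at 8 h, which use other arrays. All 3 comparisons came from 1 model with a single estimate of spread per gene, so their calls are not independent. Of the 278 genes that rose at 24 h, 173 also rose without ligand and 191 at 8 h, and 140 rose in all 3 conditions. Of the 309 that fell, 155, 151 and 114 did so. Over all genes 2.12% rose and 1.45% fell without ligand, and 3.52% rose and 1.90% fell at 8 h. CNN2 changed by 1.73 without ligand and 1.63 at 8 h, FOXN3 by 1.60 and 1.19, PRKCI by -2.17 and -2.22, NCR3LG1 by -0.95 and -1.03 and CXCL8 by -1.36 and -0.91 (not called at 8 h, adjusted p = 0.0772). The change with 24 h of TGFβ against no ligand, which shares arrays with the comparison at 24 h, was read for the 10 genes of the widest replicate 1 gaps. In siControl and siPKCiz it was 4.19 and 3.28 for TNFAIP6, 2.51 and 1.32 for IL1A, 2.47 and 1.36 for ODAPH, 3.31 and 2.25 for LCE3E, and 1.83 and 1.435 for TMEM88. It was -2.51 and -1.75 for PDK4, -1.96 and -2.49 for FGA, -0.63 and -0.35 for DIO2, -1.25 and -0.74 for EMP1, and -1.40 and -1.34 for SOX2. FGA alone of these 10 had the larger change in siPKCiz, but the 10 were picked by values of the same 24 h arrays. The differences between the arms were imprecise, such as -1.11 ± 0.65 for ODAPH and 0.062 ± 0.55 for SOX2, and 0 were called. The change of DIO2 was called in neither arm. No damping by silencing is read from these values.

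The difference between conditions was tested as an interaction in limma. No gene passed for 24 h against no ligand (0 called; 705 at an unadjusted p under 0.05) or for 24 h against 8 h (0 called; 822). Without replicate 1, 49 genes were called lower and 31 higher in their silencing effect at 24 h than without ligand (0.435% of genes). The deepest were ODAPH (interaction -2.275 ± 0.16; -2.45 at 24 h and -0.18 without ligand in replicates 2 and 3), the Ras exchange factor RASGRP3 (-2.17 ± 0.16; -1.57 and 0.59), IL1A (-2.05 ± 0.17; -2.43 and -0.38), LCE3E (-1.995 ± 0.13) and TNFAIP6 (-1.74 ± 0.13; -2.90 and -1.16). The highest were PDK4 (1.26 ± 0.21), AGR2 (1.17 ± 0.21), SLC27A2 (1.14 ± 0.14), the vesicle GTPase RAB27B (1.07 ± 0.14) and ARSJ (1.05 ± 0.16). Of the 49 lower genes 27 were among the 126 that rose at 8 h in siControl, and of the 31 higher genes 9 were among the 88 that fell. Over all genes these lists held 126 and 88 of 18377. They share the untreated siControl arrays with the interaction. In replicate 1 the interaction had the same sign in 15 of the 49 and 11 of the 31. The share of all genes with each sign was not computed, so these last counts have no background.

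Between 24 h and 8 h, 5 genes were called without replicate 1 (0.0272% of genes), all more negative at 24 h. They were IGFBP5, a growth factor carrier (-1.49 ± 0.23), SLC6A13, a GABA transporter (-1.12 ± 0.16), HS3ST3B1, a heparan sulfate sulfotransferase (-0.90 ± 0.12), TNFAIP6 (-0.89 ± 0.13) and LCE3E (-0.84 ± 0.13). IGFBP5 and SLC6A13 were at 0.075 and -0.030 at 8 h and at -1.41 and -1.15 at 24 h in replicates 2 and 3. TNFAIP6 was at -2.00 at 8 h and -2.90 at 24 h. With replicate 1 in the fit the 5 interactions were -0.97, -0.69, -0.45, -0.35 and -0.23, and the adjusted p was 0.998 for each.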

How the data were processed

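RNA of 18 A549 samples was measured on Affymetrix whole-transcript arrays. The authors summarised probes by RMA and used Partek, per the submitters' processing notes, which give no versions. The authors deposited intensity values on a linear scale, as their range shows, with 1 column per sample. Here log2 was taken of the deposited values once, and nothing else was normalized. Of 28869 probe sets, 19310 had 1 gene symbol in the platform annotation, 1752 several and 7807 none listed; the brightest stood for a gene, which left 18377 genes. Gene IDs of 19279 probe sets matched RefSeq, which gave current symbols.

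A linear model with a mean for each of the 6 groups was fitted to all 18 arrays (12 residual and 18.1 total degrees of freedom; limma 3.58.1, R 4.3.3). A gene was called where its p, adjusted by Benjamini-Hochberg over the 18377 genes, was under 0.05. The median SE of the change was 0.0996 log2 units. Named genes were PRKCI and PRKCZ, the 15 highest and 15 lowest called non-overlapping changes, up to 4 called members of each list, up to 5 interaction genes each way, and the 5 widest gaps of replicate 1 each way. The 32 lists held 654 genes, 606 of them measured. The comparison, lists and rules were chosen with earlier results of these data known. The precision is set by 3 arrays per group. Alternatives are given in the closing section.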

Additional observations from a re-analysis of the deposited data

How the results depend on the processing

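The count of 587 called genes was 658 with a filter on dim probe sets, 705 after quantile normalization, 562 after median centring, 585 with trend and robust moderation and 589 over all probe sets with 1 symbol. It moved by over 1.5 times to 1228 with array weights, to 229 with only the 6 arrays compared and to 175 with a fold change of at least 1.5. Leaving out a replicate number gave 18 (replicate 2) to 2078 (replicate 1), and leaving out a single array at 24 h gave 195 to 807; without siControl replicate 2 or 3 it was 266 or 203, and without siPKCiz replicate 2 or 3 it was 195 or 236. Why replicate 1 differed was not tested. Over 45 pairs of same-numbered arrays the correlations of deviations from group means ran from -0.514 to 0.258, and 7 pairs were over 0.1. At 24 h the pair of replicate 1 was at -0.335, against -0.00593 and -0.0576 for replicates 2 and 3. Same-numbered arrays thus did not share a common direction of deviation, and some deviated in opposite directions. The numbers were therefore not taken as a pairing; with the replicate number as a block the count was 380 (185 risen, 195 fallen), and the interactions had 0 calls.

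The interaction of 24 h against no ligand had 0 calls, 1 with array weights, 80 without replicate 1 and 3 without siControl replicate 1; over the leave-one-out fits it ran from 0 to 80. For 24 h against 8 h they ran from 0 to 5. PRKCI kept its call under all 17 alternatives (-2.43 to -2.24). PRKCZ kept its direction (-1.37 to -0.94) and lost its call in 6 leave-one-out fits, with adjusted p up to 0.402. Of the 75 named genes 68 were called, and all 68 kept their direction; 59 lost the call without replicate 2, 55 without replicate 3, 2 without replicate 1, 14 with the block and 24 under at least 1 other setting that keeps all 6 arrays. SOX2, not called, changed sign in 6 leave-one-out fits, down to -0.50, and was at 0.94 without replicate 1. Without a fold minimum the medians of the lists risen and fallen at 8 h were -0.055 and 0.076.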

Other observations

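Further gene lists had few called members (1.51% risen and 1.68% fallen over all genes, and 5.63% and 5.68% without replicate 1). Of 36 cell cycle genes 1 fell, CDC25C, a phosphatase that starts mitosis (-0.61 ± 0.14; 538, 563 and 532 in siControl against 354, 396 and 324 in siPKCiz, apart in every number). Among 20 apoptosis regulators BCL2L11, which encodes the death-promoting protein BIM, rose by 0.57 ± 0.11 (361, 416 and 416 against 572, 595 and 604), while the death receptor TNFRSF10B fell by 0.43 ± 0.11 and APAF1 by 0.42 ± 0.098. Of 17 p53 target genes TP53INP1 rose by 0.45 ± 0.11 and TNFRSF10B fell. CEBPB, a transcription factor on the stress response list, rose by 0.43 ± 0.087, and without replicate 1 the stress genes CHAC1 (0.83) and DDIT3 (0.59) were also called higher, for 4 higher and 1 lower of 21. Cathepsin D (CTSD) rose by 0.35 ± 0.073 among 20 autophagy and lysosome genes, ACAT2 by 0.32 ± 0.084 among 13 sterol genes and the lysosomal protein LAMP3 by 0.48 ± 0.096 among 10 alveolar type 2 markers. TAP1, a peptide transporter of antigen presentation, fell by 0.47 ± 0.092 as the only call among 31 interferon response genes.

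Of 22 Notch pathway genes 0 passed over all arrays in limma, and without replicate 1, 6 were called lower and 1 higher, against 5.68% and 5.63% over all genes. The Notch target HES1 (-0.66), the modifier LFNG (-0.59), MAML2 (-0.55), NOTCH2 (-0.39), NRARP (-0.29) and the ligand JAG1 (-0.29) were lower, and the DNA-binding partner RBPJ was higher (0.27). These genes were chosen after their values were seen. Of 23 hypoxia and glycolysis genes and 19 histone and ribosomal protein genes 0 were called over all arrays; without replicate 1 the first had 2 higher and 3 lower and the second 0.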
